A study of Homo sapiens with 20 samples.

Results

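Immediate early genes are genes whose transcription starts within minutes of a growth or stress signal, without new protein synthesis. The group described here has 10 members: FOS, JUN, JUNB, EGR1, IER2, IER3, DUSP1, MYC, KLF6 and KLF4. They were selected on measured values: earlier results of these same libraries, in which cells with silenced POLR1D were compared with control cells, brought them together. That comparison was made per siRNA, per library and within each line. The members' values in it, and the differences between siRNAs and between lines that are formed from it, are therefore given as a description. Where members called by a fit over all genes are counted, the share of all genes called stands beside the count, and nothing is read from it. All 10 of 10 were found by name, among 36346 gene names in the deposited tables. All 10 also passed the filter on low values in each of the 2 cell lines. Their lowest signal in any library was 15.0, above the minimum of 10, so none passed only through the group where it was high.

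The study silenced POLR1D by siRNA in HT29 and SW480, established lines from human colorectal cancers, and sequenced RNA captured with exome probes. In HT29 there were 4 libraries with the negative control siRNA (SCR), 2 with siPOLR1D2 and 2 with siPOLR1D3. In SW480 there were 6 SCR, 3 siPOLR1D2 and 3 siPOLR1D3 libraries. Both POLR1D siRNAs together are called silenced, and each line is a single established line, so its libraries are repeats of 1 cell background.

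By the GENCODE 29 positions on GRCh38, the members share no single locus. JUN lies on chromosome 1 (58780788 to 58784327), IER3 on chromosome 6 (30743199 to 30744554) and MYC on chromosome 8 (127735434 to 127741434). KLF4 lies on chromosome 9 (107484852 to 107490482), KLF6 on chromosome 10 (3775996 to 3785281) and FOS on chromosome 14 (75278774 to 75282230). Chromosome 5 holds EGR1 (138465490 to 138469315) and DUSP1 (172768090 to 172771195). Chromosome 19 holds JUNB (12791496 to 12793315) and IER2 (13150415 to 13154908).

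Most immediate early genes encode transcription factors or feedback inhibitors. Signals that run through the MAP kinases ERK, JNK and p38 activate factors already bound at their promoters, such as serum response factor with its ETS partners and CREB, and the transcripts are short lived. In the intestinal epithelium, MYC is driven by WNT signalling and proliferation, whereas KLF4 is found in differentiating cells, and KLF6 has been described as a tumor suppressor.

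Values are normalized read counts, called signal below, which the authors had scaled within each line. The lines were therefore described side by side, with no test of a level between them. Reads per library, estimated from the steps between low values, were 13532895 to 22780385 in HT29 and 18680404 to 27533555 in SW480. These numbers are rough: only 36.1% to 60.6% of a library's low values were whole multiples of the value taken as 1 read.

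Some libraries stood apart before any gene was considered. The first principal component over all tested genes held 42.0% of the variance in SW480 and placed 5 libraries on one side: SCR 1, SCR 2, SCR 3, siPOLR1D2 1 and siPOLR1D2 2. On its other side were SCR 4, SCR 5, SCR 6, siPOLR1D2 3 and all 3 siPOLR1D3 libraries. These are called the first and the second side, by the sign of the score. SCR 1 lay close to the border, at 14.1, while the rest of the first side scored 52.7 to 71.5. On the second side SCR 6 was nearest to the border, at -21.8. The sides crossed the treatment groups, so silenced and SCR libraries could be compared within each, but no siPOLR1D3 library lay on the first side. In HT29 the first component held 43.3% of the variance, and SCR 1 scored 88.3 on it, against 18.7 for SCR 2 and -21.1 to -15.1 for the other 6 libraries. The labels name no batch, and what set these libraries apart was not tested.

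**Figure D1:**
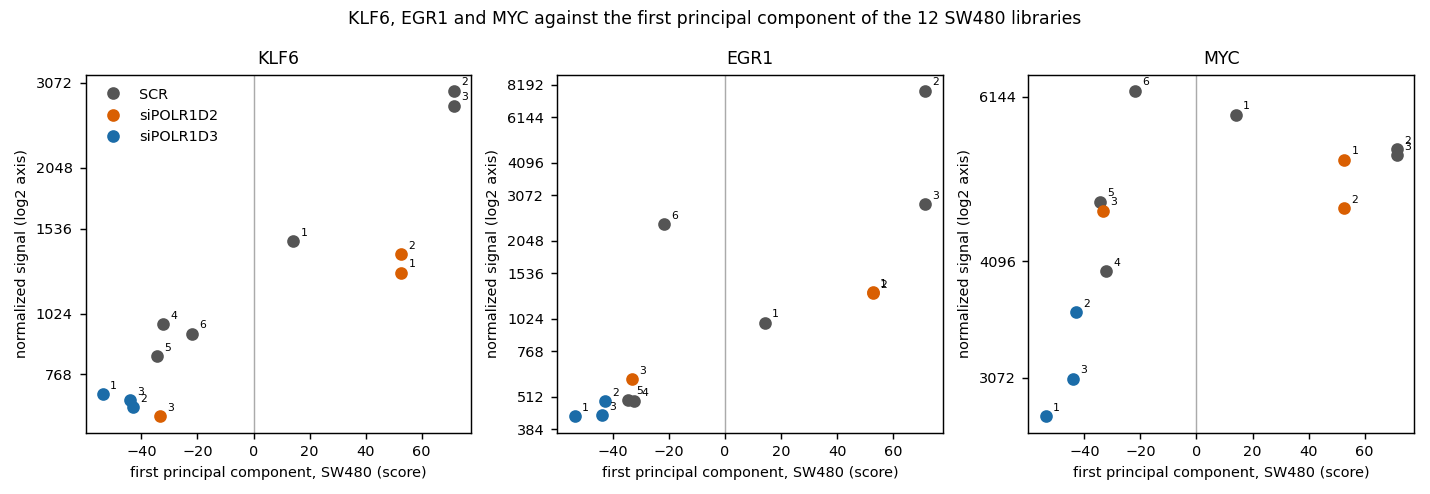
Signal of EGR1, KLF6 and MYC in the 12 SW480 libraries (log2 axis) against each library's score on the first principal component of all tested genes; colors mark the siRNA, small digits the library's number, and the gray line at 0 parts the sides. SCR 2 and SCR 3, at scores of 71.5 and 71.4, had the highest EGR1 and KLF6 signals of the SW480 libraries, whereas MYC was lowest in the 3 siPOLR1D3 libraries, at scores of -53.7 to -42.9.

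POLR1D, the silenced gene, encodes a subunit shared by RNA polymerases I and III. In SW480 its signal ranged from 1829 to 2599 in the 6 SCR libraries (median 2030.3). It was 1336, 913 and 972 in the siPOLR1D2 libraries and 843, 1174 and 981 in the siPOLR1D3 libraries. All 6 silenced libraries lay below all 6 SCR libraries. POLR1D fell by 1.04 on the log2 scale (SE 0.13; limma adjusted p 0.000991). The call stayed under the threshold of 0.05 in each of the 12 fits that left out 1 library, where the log2 fold change ranged from -1.11 to -0.98. It was lost on the first side alone, where the log2 fold change was -1.06 (limma adjusted p 0.261), and with the replicate block, where it was -1.17 (limma adjusted p 0.0865).

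In HT29 the POLR1D signals were 6036, 4711, 4433 and 5009.6 in SCR, 3414 and 3492 with siPOLR1D2, and 2858 and 2549.6 with siPOLR1D3. Here too all 4 silenced libraries were below all 4 SCR libraries. Its log2 fold change was -0.72 (SE 0.14), and the limma adjusted p of 0.355 did not pass the threshold. Without SCR 1 it was -0.63.

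Promoter windows of 250 bases before the start were taken from a table of RefSeq promoters (GRCh38.p14). The table used here held 8 of the 10 members, without IER3 and MYC. Both strands were searched for 8 motifs, and a match is a description of letters, not of binding. Motifs outside these 250 bases were not searched for, so a gene without a match may still have the motif elsewhere. The CArG box, the sequence that serum response factor recognizes, occurred in 1.16% of all 35116 promoters and in 1 member, EGR1, with 2 matches, 105 to 96 and 83 to 74 bases before the start. The cAMP response element (TGACGTCA) occurred in 1.65% of all promoters and in DUSP1. The E-box (CACGTG), which MYC with MAX can bind, occurred in 6.34% and in DUSP1, KLF6 and KLF4. The GC box (GGGCGG), the kind of site Kruppel-like factors and SP1 recognize, occurred in 42.6% and in 6 members. The TATA box (TATAAA) occurred in 10.7% and in FOS, JUNB and DUSP1, and the ETS site (CCGGAAG) in 8.52% and in IER2. An AP-1 site (TGANTCA, 6.57% of all promoters) and an ATF4-C/EBP composite (TGATGCAA, 0.772%) were found in 0 of the 8 windows.

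Of these windows 3 are shown 5′ to 3′, from RefSeq GRCh38.p14, because their genes mark the range of behaviour described below. EGR1 (chr5:138465229-138465478, plus strand) had the widest spread among SW480 libraries, and capitals mark its CArG boxes. DUSP1 (chr5:172771196-172771445, minus strand) had the narrowest, and capitals mark its cAMP response element, E-box and TATA box. KLF6 (chr10:3785282-3785459, minus strand) was the member whose silenced libraries lay below all SCR libraries in HT29 and within each SW480 side, and capitals mark a GC box and its E-box. The KLF6 window is shown in part, as 178 bases from 250 to 73 bases before the start, up to where the annotated gene starts. The searched window ran on into the annotated gene, and its other GC box, 61 to 56 bases before the start, lies in the part not shown.
EGR1: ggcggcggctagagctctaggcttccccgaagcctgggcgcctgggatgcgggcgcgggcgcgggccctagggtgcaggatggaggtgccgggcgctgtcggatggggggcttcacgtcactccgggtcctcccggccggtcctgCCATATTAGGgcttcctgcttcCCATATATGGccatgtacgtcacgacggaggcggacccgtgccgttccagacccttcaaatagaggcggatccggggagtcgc
DUSP1: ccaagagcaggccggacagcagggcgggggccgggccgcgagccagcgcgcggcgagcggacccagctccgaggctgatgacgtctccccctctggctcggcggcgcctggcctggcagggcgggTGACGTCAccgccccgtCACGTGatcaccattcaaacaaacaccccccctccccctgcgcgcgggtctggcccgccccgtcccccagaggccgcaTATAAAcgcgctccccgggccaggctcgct
KLF6: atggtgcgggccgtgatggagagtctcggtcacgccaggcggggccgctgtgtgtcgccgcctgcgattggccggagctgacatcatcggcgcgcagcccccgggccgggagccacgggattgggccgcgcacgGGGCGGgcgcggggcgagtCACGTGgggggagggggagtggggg

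The AP-1 transcription factor is a dimer of FOS and JUN family proteins, represented here by FOS, JUN and JUNB. In SW480, FOS signal ranged from 134 to 706 in SCR (median 389), was 331, 589 and 135 with siPOLR1D2, and was 189.9, 139.8 and 183 with siPOLR1D3. The siPOLR1D3 libraries were all near the bottom of the SCR range, and siPOLR1D2 libraries were spread over it. The log2 fold change of silenced against SCR was -0.60 (SE 0.42), and -0.23 without SCR 2 and SCR 3. In HT29, FOS signals were 136, 147, 166 and 139.8 in SCR, 108 and 129 with siPOLR1D2, and 170.2 and 159 with siPOLR1D3. The siRNA means lay on opposite sides of SCR, at log2 fold changes of -0.31 and 0.16, and the pooled value was -0.08 (SE 0.18). In bulk RNA, fewer cells that express a gene and less RNA per cell cannot be told apart, which holds for every value below.

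JUN, the partner that can also pair with itself, ranged in SW480 from 131 to 834 in SCR (median 316). It was 329, 257 and 189 with siPOLR1D2 and 122, 159 and 183 with siPOLR1D3, so 1 of 6 silenced libraries was below every SCR library. Silenced against SCR gave a log2 fold change of -0.66 (SE 0.40), and of -0.12 without SCR 2 and SCR 3. HT29 signals of JUN were 517, 475, 309 and 467 in SCR, 330.2 and 277 with siPOLR1D2, and 308 and 271 with siPOLR1D3. There 3 of 4 silenced libraries were below all SCR libraries, because SCR 3 was itself low. The HT29 log2 fold change was -0.55 (SE 0.18), and the siRNAs gave -0.52 and -0.58.

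JUNB, an AP-1 subunit that can oppose JUN, varied less. Its SW480 signal was 84.2 to 184 in SCR (median 124), 79.6, 98.8 and 128 with siPOLR1D2, and 104, 101.2 and 94.0 with siPOLR1D3. Its log2 fold change was -0.31 (SE 0.20). This came from the first side, with -0.67, whereas the second side gave -0.03. In HT29 the values were 167, 113, 88.4 and 85.4 in SCR and 93.1 to 129 in the silenced libraries, all inside the SCR range. That log2 fold change was 0.09 (SE 0.24), 0.29 without SCR 1. HOOK2 overlaps JUNB on the other strand, and reads of overlapping genes cannot be told apart where the strand used in counting is not given.

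**Figure D2:**
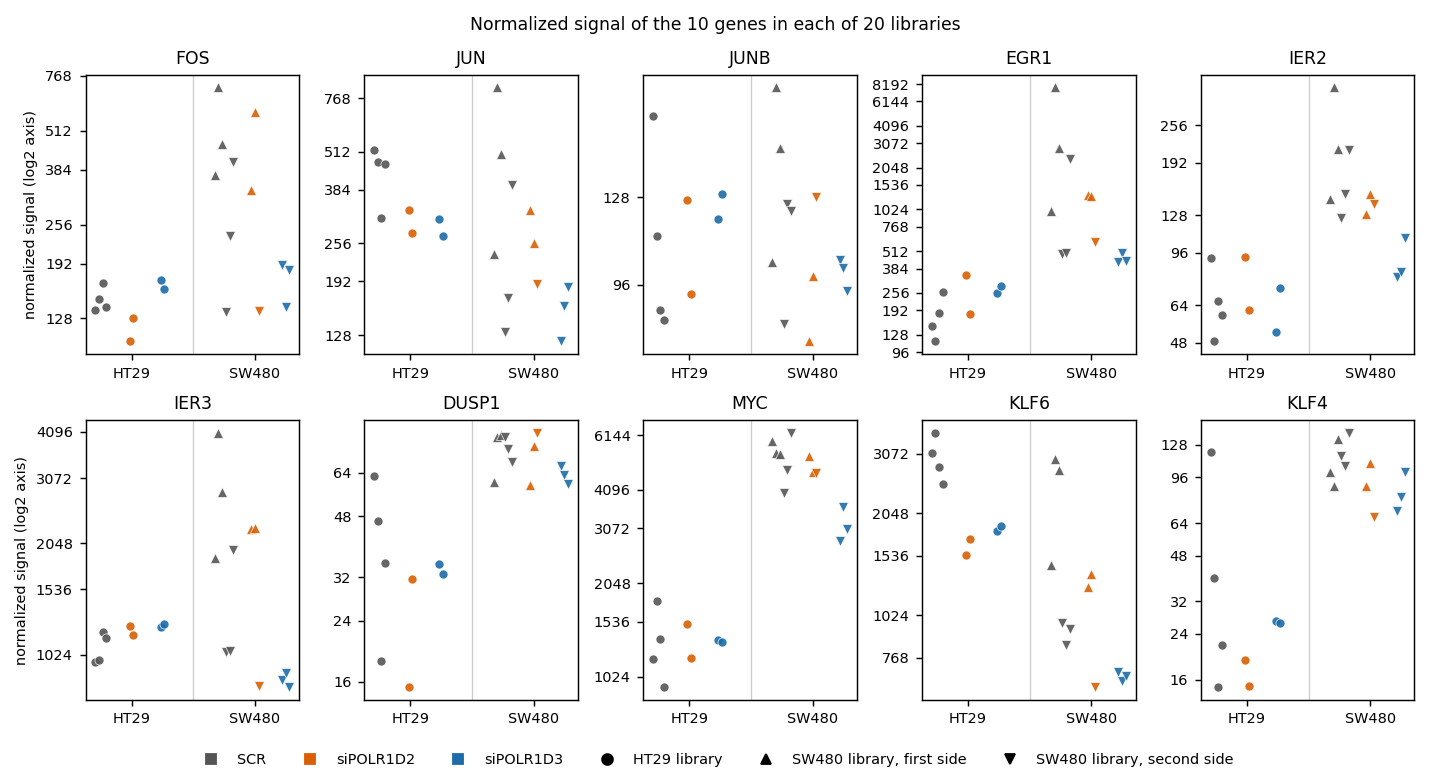
Signal of each of the 10 genes in the 20 libraries on log2 axes, 1 point a library; colors mark SCR, siPOLR1D2 and siPOLR1D3, and triangles mark the sides of the first component in SW480. EGR1 spanned 431 to 7772 in SW480, whereas DUSP1 spanned 58.9 to 83.3.

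EGR1 is a zinc finger factor that couples growth signals to later transcription. Its SW480 signal was 492 to 7772 in SCR (median 1685; mean 2495, SD 2765, n = 6). It was 1301, 1289 and 601 with siPOLR1D2 and 431, 494 and 436 with siPOLR1D3. SCR 2 alone was 15.8 times the lowest SCR library, and SCR 4 and SCR 5, at 492 and 499, stood at the level of the siPOLR1D3 libraries. Silenced libraries overlapped SCR, with 2 of 6 below all SCR values. Its log2 fold change was -1.18 (SE 0.61). The value was -0.71 without SCR 2 and -0.37 without SCR 2 and SCR 3.

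In HT29, EGR1 was 149, 115, 183 and 259 in SCR, 346 and 181 with siPOLR1D2, and 257 and 287 with siPOLR1D3. Here the silenced libraries lay on the upper side, with 2 of 4 above all SCR libraries. Pooled, the log2 fold change was 0.62 (SE 0.28), and it was 0.56 and 0.68 for siPOLR1D2 and siPOLR1D3. Leaving out 1 library at a time gave 0.44 to 0.83.

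IER2 is a small nuclear protein induced by growth factors. In SW480 it was 125 to 343 in SCR (median 181), 129.8, 151 and 139.8 with siPOLR1D2, and 79.5, 83.0 and 107 with siPOLR1D3. All 3 siPOLR1D3 libraries were below all 6 SCR libraries and below all 3 siPOLR1D2 libraries. Pooled, the log2 fold change was -0.74 (SE 0.25), against -0.41 for siPOLR1D2 and -1.06 for siPOLR1D3. Without SCR 2 and SCR 3 it was -0.47. HT29 signals were 91.9, 48.5, 66.3 and 59.2 in SCR and 52.0 to 92.8 in silenced libraries, which overlapped, at a log2 fold change of 0.08 (SE 0.26). The sign there changed to -0.07 without siPOLR1D2 1. AC011446.2 overlaps IER2 on the other strand.

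IER3 protects cells from death signals and prolongs ERK activity. It had 6 entries in the tables, of which 4 were identical in all libraries, and the sum of the 6 was used. That sum in SW480 was 1039 to 4065 in SCR (median 1917), 2238, 2246 and 842 with siPOLR1D2, and 877, 911 and 837 with siPOLR1D3. The 4 silenced libraries of the second side were below every SCR library, and the other 2, on the first side, were not. Over all SW480 libraries the log2 fold change was -0.67 (SE 0.37), and -0.25 without SCR 2 and SCR 3.

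The entries of IER3 did not move as one. In SW480, 1 of them held 36.2 in siPOLR1D3 1 and 759 in siPOLR1D3 2, while each identical entry held 210.2 and 38.1 in those libraries, so the sum was steadier than its pieces. In HT29 the sum was 980.3, 992, 1181 and 1135 in SCR, 1221 and 1158 with siPOLR1D2, and 1215 and 1241 with siPOLR1D3. Of the silenced HT29 libraries 3 of 4 were above all SCR libraries, at a log2 fold change of 0.18 (SE 0.10). IER3-AS1 overlaps the gene on the other strand.

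DUSP1 is a phosphatase that switches off the MAP kinases, a feedback arm of the same response. Its signal in SW480 was 60.2 to 82.3 in SCR (median 77.8), 58.9, 76.2 and 83.3 with siPOLR1D2, and 67.0, 63.0 and 59.3 with siPOLR1D3. These groups overlapped, and the log2 fold change was -0.14 (SE 0.17). In HT29 it was 62.7, 46.5, 18.4 and 35.1 in SCR, 15.4 and 31.6 with siPOLR1D2, and 35.04 and 32.6 with siPOLR1D3. The HT29 log2 fold change of -0.43 (SE 0.41) was -0.18 without SCR 1 and turned to 0.08 when libraries were weighted by their spread. AC022217.3 overlaps DUSP1 on the other strand.

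MYC is a transcription factor that drives ribosome production and growth. Its SW480 signal was 3998 to 6235 in SCR (median 5357; mean 5261, SD 802, n = 6). It was 5259.8, 4667 and 4641 with siPOLR1D2 and 2795, 3613 and 3066 with siPOLR1D3. The siPOLR1D2 libraries lay inside the SCR range, and all 3 siPOLR1D3 libraries lay below all other SW480 libraries. The log2 fold change against SCR was -0.10 (SE 0.14) for siPOLR1D2, -0.73 (SE 0.15) for siPOLR1D3 and -0.42 (SE 0.16) for both. Unlike EGR1, it was nearly as large without SCR 2 and SCR 3, at -0.40.

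In HT29, MYC was 1164, 1799, 1358 and 947 in SCR, 1513 and 1178 with siPOLR1D2, and 1339 and 1319 with siPOLR1D3. All 4 silenced libraries were inside the SCR range. Silencing gave a log2 fold change of 0.06 (SE 0.18), and its sign changed when single libraries were left out, over a range of -0.09 to 0.22.

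KLF6 is a zinc finger factor of the Kruppel-like family that recognizes GC-rich promoters. In SW480 its signal was 838 to 2955 in SCR (median 1210.1), 1246, 1359 and 629 with siPOLR1D2, and 699, 656 and 680.0 with siPOLR1D3. The SCR group itself was split, since SCR 2 and SCR 3 were at 2955 and 2754 and the second-side SCR libraries at 838 to 974.8. On each side, all silenced libraries were below all SCR libraries. For KLF6 the log2 fold change was -0.79 (SE 0.34) over all libraries, -0.81 on the first side and -0.45 on the second. Without SCR 2 and SCR 3 it was -0.30.

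KLF6 in HT29 was 3081, 3533, 2797 and 2492 in SCR, 1542 and 1717 with siPOLR1D2, and 1818 and 1884 with siPOLR1D3. All 4 silenced libraries were below all 4 SCR libraries, with a gap from 1884 to 2492. The log2 fold change was -0.77 (SE 0.13), with -0.86 for siPOLR1D2 and -0.67 for siPOLR1D3. It stayed between -0.85 and -0.68 when single libraries were left out, and was -0.75 without SCR 1.

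KLF4, a Kruppel-like factor of differentiating epithelium, was 88.9 to 142 in SW480 SCR libraries (median 111). It was 89.2, 109 and 67.5 with siPOLR1D2 and 71.5, 80.5 and 100.8 with siPOLR1D3, at a log2 fold change of -0.41 (SE 0.18). On the second side all 4 silenced libraries were below the SCR libraries, and on the first side they overlapped. In HT29 the values were 119.8, 39.5, 15.0 and 21.7 in SCR, 19.1 and 15.1 with siPOLR1D2, and 27.0 and 26.3 with siPOLR1D3. The HT29 log2 fold change of -0.71 (SE 0.57) rested on SCR 1 and was -0.14 without it. A pseudogene, KLF4P1, carries similar sequence, and how many reads it shares with KLF4 was not tested.

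**Figure D3:**
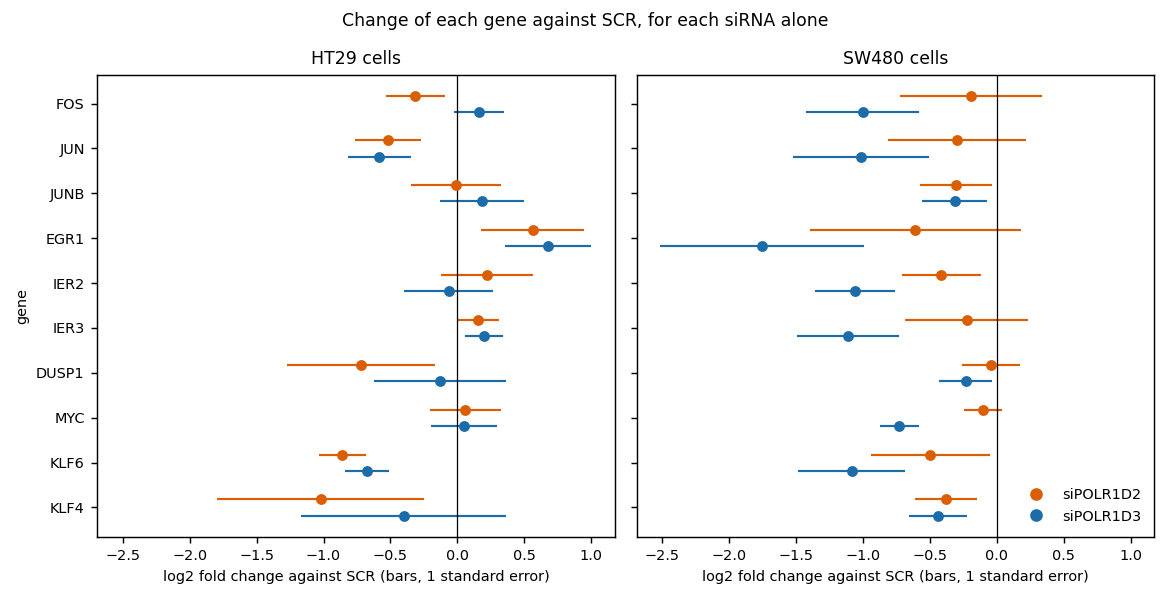
Log2 fold change of each of the 10 genes against SCR for siPOLR1D2 and siPOLR1D3 in HT29 and SW480; bars are 1 standard error. In SW480 the siPOLR1D3 values ran from -1.75 (EGR1) to -0.23 (DUSP1); both siRNAs of a line share their SCR libraries.

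Across the group, the SW480 log2 fold change was below 0 for 10 of 10 members (median -0.63), and 7279 of 15019 tested genes were below 0 (median 0.01). The sign of each member in SW480 was kept in all of its alternative fits, 30 for IER3 and 31 for each other member, though the size was not. In HT29 it was below 0 for 5 of 10 members, FOS, JUN, DUSP1, KLF6 and KLF4 (median -0.01), where 6635 of 13274 tested genes were below 0. Of these FOS kept its sign in 20 of 23 alternative fits and DUSP1 in 22 of 23. JUN, KLF6 and KLF4 kept it in all of theirs. The direction was part of what chose the members, so these counts stand as a description.

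In limma fits over all genes, with Benjamini-Hochberg adjusted p under 0.05, silencing in SW480 called 0 of 10 members beside 6.73% of all tested genes. Those were 1011 genes, 644 lower and 367 higher. The 1011 adjusted calls became 547 without SCR 3, 576 without SCR 4 and 550 without SCR 6. They were 558, 628 and 534 without siPOLR1D3 1, 2 and 3, and within the same range without siPOLR1D2 3. Array weights gave 2 of 10 members beside 3057 of 15019 genes, and the second side alone 1 of 10 beside 1939 of 15553. The side as a covariate gave 1 of 10 beside 1993 of 15019 genes, and siPOLR1D3 alone 1 of 10 beside 917 of 15705. On the first side alone limma called 0 genes at the adjusted threshold, as it did with the replicate block, which pairs libraries by their numbers. At an unadjusted p under 0.05 the SW480 counts were 4 of 10 members beside 23.2% of all genes. In HT29 limma called 0 of 10 members beside 0.00% of 13274 genes, and 3 of 10 beside 10.7% at an unadjusted p under 0.05. Without HT29 SCR 3 or siPOLR1D2 1 the count of all genes was 1, and with both lines in 1 fit it was 11. With the replicate block limma called 735 of 13274 genes in HT29, 2 of 10 members among them.

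Complete separation of the groups was counted as well. In SW480 no member had all 6 silenced libraries below all 6 SCR libraries, 0 of 10 beside 2.88% of all tested genes. In HT29 this held for 1 of 10, KLF6, beside 4.17%. Within both SW480 sides taken one at a time it held for 1 of 10 members, again KLF6, beside 5.83% of genes. With the side as a covariate limma called 1 of 10 members lower, KLF6, beside 7.86% of all genes. Since the silencing contrast chose the members, nothing is read from these counts.

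Much of the spread in SW480 was among the control libraries themselves. SCR 2 was the highest SCR library for 7 of 10 members and SCR 4 the lowest for 7 of 10. Measured from the SCR mean on the log2 scale, the median member stood at 0.96 in SCR 2 and -0.57 in SCR 4. It stood at -0.97, -1.004 and -0.78 in siPOLR1D3 1, 2 and 3, and in these libraries 0 of 10 members were above the SCR mean. In siPOLR1D2 1, 2 and 3 it stood at -0.22, -0.12 and -0.73. The second-side library siPOLR1D2 3 was close to the siPOLR1D3 libraries in FOS (135), IER3 (842) and KLF6 (629), and apart from them in MYC (4641) and IER2 (139.8).

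**Figure D4:**
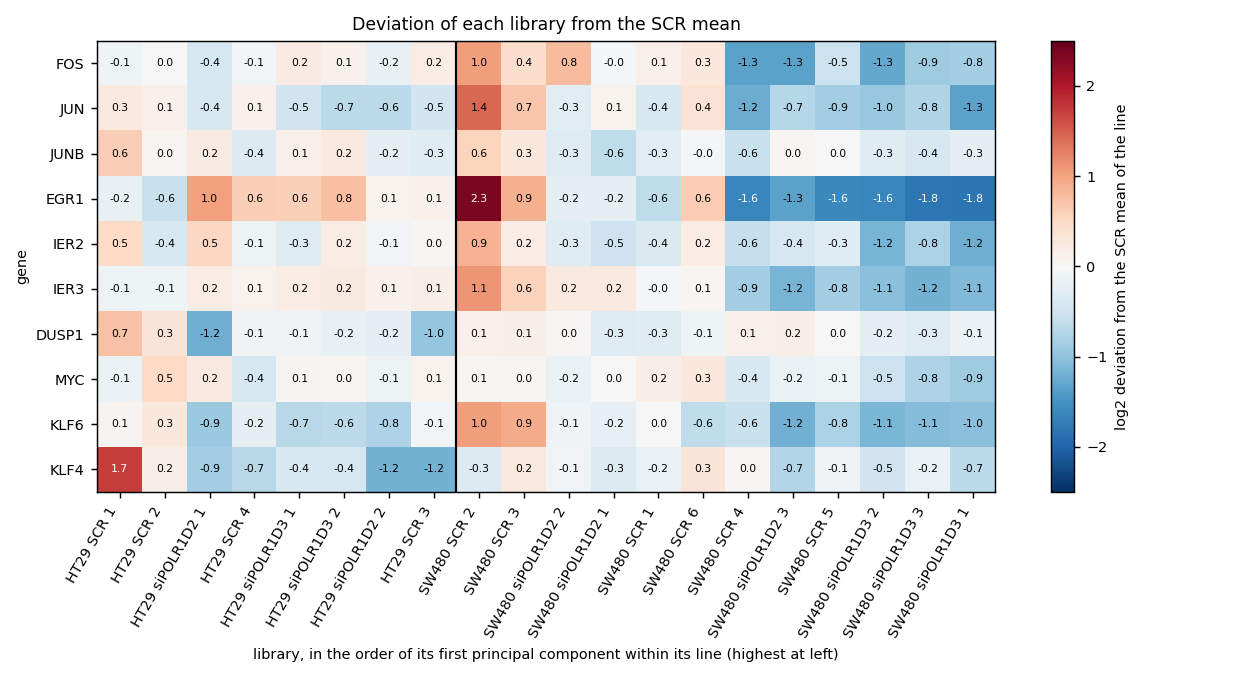
Log2 signal of each of the 10 genes in each library minus the mean of the SCR libraries of its line; color and printed values show the deviation, and libraries are ordered by their first component score. EGR1 ran from 2.35 in SW480 SCR 2 to -1.82 in siPOLR1D3 1, and KLF6 was negative in all 4 silenced HT29 libraries.

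Within groups, the members differed in how closely they moved together. Over the 12 SW480 libraries, after the mean of each siRNA group was taken away, each gene was compared with the mean standardized residual of the 10 members. The Pearson r was 0.965 for EGR1, 0.958 for JUN, 0.906 for IER3, 0.901 for IER2, 0.864 for FOS and 0.820 for KLF6. It was lower for JUNB (0.659) and MYC (0.510), and lowest for KLF4 (0.187) and DUSP1 (0.102). Each member is part of the mean it is compared with, and all points share their libraries, so these are descriptions. Outside the group, the 5 genes most like that mean were ZBTB38 (0.955), SPECC1L (0.954), PPP4R3A (0.953), PPP1R15B (0.952) and GMEB1 (0.951). These were picked as the highest r among all tested genes, and the residuals still held the spread between the sides. Their r is therefore a description too.

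The difference between the siRNAs is formed from the per-siRNA values that chose the members, so it too is a description. In SW480 limma called 0 of 10 members for siPOLR1D3 minus siPOLR1D2 beside 3.32% of all tested genes (498), and 1 of 10 beside 21.8% at an unadjusted p under 0.05. MYC had a log2 difference of -0.63 (SE 0.16), and all 3 siPOLR1D3 libraries were below all 3 siPOLR1D2 libraries. Over 17 alternative fits its difference ran from -0.73 to -0.53. The latter was with the side as a covariate, an alternative chosen after the data were seen.

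Both counts moved with the fit. The count of members was 1 under a pseudocount of 5 (523 genes in all), a minimum signal of 30 (556 genes) and quantile normalization (more genes than either). It was also 1 without SCR 1 (734 genes) and without SCR 4 (421 genes). The count of 498 genes was 280 without SCR 6, 89 and 100 without siPOLR1D2 1 and 2, and 777 without siPOLR1D2 3. Without siPOLR1D3 1, 2 and 3 it was 45, 39 and 52.

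Among the other members in SW480, the log2 difference was -1.14 (SE 0.84) for EGR1, -0.89 (SE 0.48) for IER3, -0.81 (SE 0.57) for FOS, -0.72 (SE 0.55) for JUN and -0.64 (SE 0.32) for IER2. It was -0.59 (SE 0.47) for KLF6, -0.19 (SE 0.23) for DUSP1, -0.06 (SE 0.25) for KLF4 and -0.01 (SE 0.28) for JUNB. KLF4 kept its sign in 15 of 17 alternative fits and JUNB in 14. With the side as a covariate EGR1 came to -0.11, IER3 to -0.09 and JUN to -0.06, and FOS and KLF6 changed sign, to 0.04 and 0.23. IER2 came to -0.43. The siRNAs and the sides overlap, since 2 of the 3 siPOLR1D2 libraries are on the first side and siPOLR1D3 has none there.

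In HT29 limma called 0 of 10 members for the same difference, beside 0.00% of all genes, and 0 of 10 beside 1.56% at an unadjusted p under 0.05. The largest log2 differences over all HT29 libraries were 0.62 (SE 0.83) for KLF4, 0.59 (SE 0.59) for DUSP1 and 0.48 (SE 0.22) for FOS. The DUSP1 difference was 0.097 without siPOLR1D2 1 and 1.08 without siPOLR1D2 2. MYC differed by -0.01 (SE 0.28). The siPOLR1D2 and siPOLR1D3 groups have 2 libraries each there.

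The line-by-silencing interaction is the SW480 silencing value minus the HT29 one. For the members both were among the values that chose them, so their differences are a description. Limma called 0 of 10 members beside 0.0370% of 16203 genes (6 genes), and 2 of 10 beside 8.28% at an unadjusted p under 0.05. EGR1 had a log2 difference of -1.80 (SE 0.82), with all 6 silenced libraries in SW480 below the SCR mean of log2 signal and all 4 in HT29 above it. Below that mean in SW480 were also SCR 1, SCR 4 and SCR 5, and above it in HT29 SCR 3 and SCR 4. IER2 had -0.81 (SE 0.39) and KLF6 -0.02 (SE 0.45).

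The count of 6 genes in the interaction was moved by single libraries. It was 2, 23 and 10 without HT29 SCR 2, 3 and 4, and 0 without HT29 siPOLR1D2 2 or siPOLR1D3 1. It was 13 and 1 without SW480 SCR 2 and 4, 2 and 3 without SW480 siPOLR1D2 1 and 2, and 0 without SW480 siPOLR1D3 2. The counts of 0 are from limma with adjusted p, where all libraries gave 1342 genes at an unadjusted p under 0.05.

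Genes around the members were described from lists that were chosen with earlier results of these data known. The counts for these lists, and the calls and adjusted p of single genes in them, are therefore a description, as for the members. Single calls among them come from the limma fit over all genes. The genes named are the called ones with the largest changes, so they do not stand for their list. Among other AP-1 subunits, SW480 silencing called 2 of 11 tested genes lower and 0 higher (median log2 fold change -0.46). Among other immediate early genes it called 3 of 28 lower and 0 higher (median -0.38). The dual specificity phosphatases other than DUSP1 gave 1 of 8 lower (median -0.56), and the other Kruppel-like factors 1 of 12 lower (median -0.06). Over all tested genes the median was 0.01, and 6.73% were called.

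ATF3, a stress-induced AP-1 partner, was 169.8 to 1337 in SW480 SCR and 54.9 to 202 in silenced libraries. It fell by 1.74 on the log2 scale (SE 0.49; limma adjusted p 0.0486), with 6 of 6 silenced libraries below the SCR mean. This call was kept in 4 of 12 fits that left out 1 library, with adjusted p of 0.0370 to 0.103 by limma. It was lost without SCR 2, 3 or 6, siPOLR1D2 1 or 3, or any of siPOLR1D3 1, 2 and 3. Over all alternative fits it was kept in 11 of 31. Each siRNA alone, no filter on low values, upper quartile scaling, robust or untrended variance, both lines in 1 fit, unsummed entries and relative depth as a covariate each lost it. The log2 fold change ran from -2.15 with siPOLR1D3 alone to -1.24 without SCR 2 and SCR 3 together, so a lost call was not always a smaller change. In HT29 ATF3 was 34.0 to 725 in SCR and 16.0 to 34.6 in silenced libraries. The HT29 log2 fold change of -2.89 (SE 0.77) had a limma adjusted p of 0.355.

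MAFF, a small MAF protein that pairs with AP-1 factors, was 33.2 to 84.8 in SW480 SCR and 8.35 to 31.5 in silenced libraries, with no overlap. It fell by 1.57 (log2, SE 0.35; limma adjusted p 0.0190), in 6 of 6 libraries, and the call was kept in 12 of 12 fits that left out 1 library but lost without SCR 2 and SCR 3 together and with siPOLR1D2 alone (27 of 31 alternative fits kept). PLK2, a kinase of the early growth response, was 1196 to 2139 in SCR and 892 to 1138 in silenced libraries. It fell by 0.73 (log2, SE 0.13; limma adjusted p 0.00608), also in 6 of 6 libraries. That call was kept in 12 of 12 such fits and lost with siPOLR1D2 alone (28 of 31 kept).

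GADD45A, a stress sensor upstream of p38 and JNK, fell by 1.10 (log2, SE 0.29; limma adjusted p 0.0386), with 6 of 6 silenced libraries below the SCR mean. That call was lost without SCR 2, 3 or 6, siPOLR1D2 3, or any of siPOLR1D3 1, 2 and 3 (limma adjusted p 0.0319 to 0.0834 over 12 fits). Over all alternative fits 17 of 31 kept it, and no filter on low values, untrended variance, siPOLR1D2 alone and relative depth as a covariate were among those that lost it. PIM1, a survival kinase, fell by 0.87 (log2, SE 0.23; limma adjusted p 0.0369), again in 6 of 6. It was lost without any of SCR 2 to 6 or any of siPOLR1D3 1 to 3 (limma adjusted p 0.0258 to 0.0738 over 12 fits), and also with siPOLR1D2 alone and with no filter on low values (18 of 31 alternative fits kept).

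DUSP16, a phosphatase of JNK and p38, was 389 to 538 in SW480 SCR and 209 to 378 in silenced libraries, with no overlap. It fell by 0.66 (log2, SE 0.16; limma adjusted p 0.0245, 6 of 6 libraries) and was lost without SCR 3, SCR 6 or siPOLR1D3 3 (limma adjusted p 0.0174 to 0.0558 over 12 fits). Each siRNA alone lost it too, and 23 of 31 alternative fits kept it. KLF9, a Kruppel-like factor responsive to hormones, was 44.2 to 80.0 in SCR and 6.94 to 36.1 in silenced libraries. It fell by 1.51 (log2, SE 0.35; limma adjusted p 0.0226, 6 of 6 libraries) and was lost without SCR 3 or SCR 6 (limma adjusted p 0.0187 to 0.0519 over 12 fits; 26 of 31 alternative fits kept). In HT29 KLF9 did not pass the filter on low values, at 3.50 to 8.94.

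For MYC, 15 partners and antagonists and 18 classical targets were tested in SW480. By limma 0 of each passed the adjusted threshold, and 2 partners and 5 targets had an unadjusted p under 0.05, where 23.2% of all tested genes did. The median log2 fold change was 0.02 for the partners, with 7 of 15 below 0, and 0.10 for the targets, with 4 of 18 below 0. In HT29 the medians were -0.11 over 14 partners and 0.15 over 16 targets.

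Upstream of the group, 19 kinases and factors were tested, and SW480 silencing called 0 lower and 1 higher (median -0.10). Over all 15019 tested genes 644 were called lower and 367 higher, and nothing is read from the count for this list. The called gene was MAPK3, which encodes ERK1. Its signal was 196 to 330.3 in SCR and 404 to 492 in silenced libraries, with no overlap. It rose by 0.82 (log2, SE 0.14; limma adjusted p 0.00608, 6 of 6 libraries) and was kept in 12 of 12 fits that left out 1 library. In HT29 its log2 fold change was -0.25 (SE 0.14; limma adjusted p 0.540).

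Of 6 cell cycle genes linked to these factors, 2 were called lower in SW480 and 0 higher (median -0.32), where 644 of all 15019 tested genes were called lower. The list is short, and nothing is read from this count. Both encode inhibitors of cyclin-dependent kinases. CDKN2B was 128 to 319 in SCR and 47.4 to 124 in silenced libraries. It fell by 1.29 (log2, SE 0.28; limma adjusted p 0.0185, 6 of 6 libraries), a call kept in 12 of 12 fits that left out 1 library and in 27 of 31 alternative fits in all. It was lost without SCR 2 and SCR 3 together, with siPOLR1D2 alone, on the first side alone and with the replicate block. CDKN1B fell by 0.58 (log2, SE 0.15; limma adjusted p 0.0366, 6 of 6 libraries). It was lost without SCR 2, 3 or 6, siPOLR1D2 1 or 3, or siPOLR1D3 1 or 3 (limma adjusted p 0.0306 to 0.0815 over 12 fits). Each siRNA alone, the second side alone, no filter on low values and untrended variance lost it as well, and 16 of 31 alternative fits kept it.

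In HT29 limma called 0 of 107 tested genes of these 8 lists at the adjusted threshold, and 19 had an unadjusted p under 0.05. Over all 13274 genes the counts were 0 and 1422. The HT29 medians were -0.35 for other AP-1 subunits, -0.11 for other immediate early genes, -0.64 for other dual specificity phosphatases and -0.21 for other Kruppel-like factors. They were 0.01 for upstream kinases and factors and 0.00 for the cell cycle genes.

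Counted together, apart from the cell type markers, 10 of 117 tested listed genes were called in SW480 (9 lower, 1 higher), where 1011 of all 15019 tested genes were (6.73%). At an unadjusted p under 0.05 they were 35 of 117, beside 23.2%. All 10 calls were lost on the first side alone and with the replicate block, though a lost call was not always a smaller change. With the block the log2 fold change was -1.61 for CDKN2B (-1.29 without it) and -0.79 for CDKN1B (-0.58 without it). On the first side it was -2.28 for KLF9 (-1.51 over all libraries) and -1.10 for PIM1 (-0.87). For PLK2 it was smaller there, at -0.44 (-0.73). Of the 10, 8 were lost without SCR 2 and SCR 3 together, and PLK2 and MAPK3 were kept. The number called was 16 without SCR 1, 4 without SCR 3, 4 without SCR 6, 6 without siPOLR1D3 1 and 5 without siPOLR1D3 3. With SCR 2 and SCR 3 both left out it was 3.

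**Figure D5:**
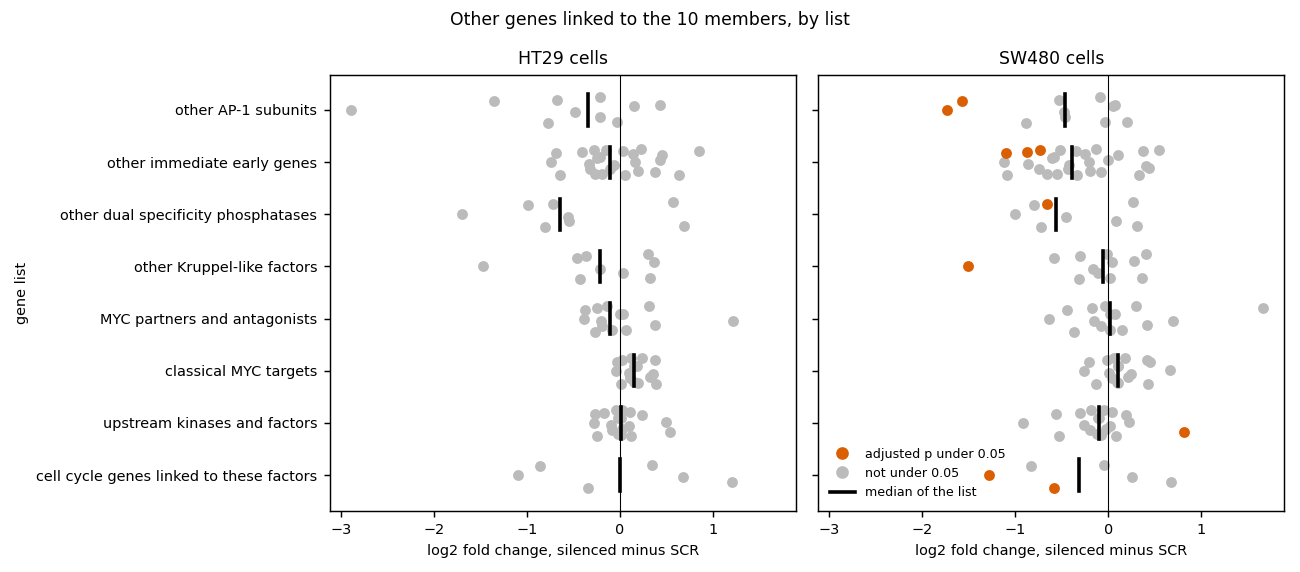
Log2 fold change of silenced minus SCR for each tested gene of each list in SW480 and HT29, 1 point a gene, with called genes marked and the list medians drawn. In SW480 the median was -0.46 for other AP-1 subunits and 0.10 for classical MYC targets.

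The labelled cell type was checked against markers. All 10 colorectal epithelium markers were found by name, with a summed signal of 220519 to 261620 in HT29 and 139189 to 270015 in SW480. KRT8 led them in HT29 and KRT18 in SW480, and 1 to 3 of the 10 were under a signal of 10 in each library. CDX2 was 0 to 0.46 in HT29 SCR and 3.96 to 7.91 in silenced HT29 libraries. CEACAM5 and LGALS4 had means of 9.58 and 4.67 in SW480 SCR. In SW480 KRT20 was 1.73 to 11.2 in SCR and 20.7 to 94.6 in silenced libraries. It passed the filter on low values only through the silenced libraries, where it is high, so its call is not used as a test. KRT19 rose by 0.70 (log2, SE 0.16; limma adjusted p 0.0226, 6 of 6 libraries), and its call was lost without SCR 4 or SCR 6 (limma adjusted p 0.00549 to 0.0519 over 12 fits). It was also lost with siPOLR1D3 alone, on the first side alone, with the replicate block and without SCR 2 and SCR 3 together, and 25 of 31 alternative fits kept it. The list had 2 of 8 tested genes called higher, KRT20 among them, and 0 lower in SW480 (median 0.17). Over all 15019 tested genes 367 were called higher, and nothing is read from the count of 2. In HT29 the list had a median of -0.03 over 9 genes.

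Of 13 stromal, endothelial and leukocyte markers, 7 were tested in SW480 and 4 in HT29, with 0 called by limma in either line and 1 in each at an unadjusted p under 0.05 (medians 0.25 and 0.39). At that unadjusted threshold limma gave 23.2% of all tested genes in SW480 and 10.7% in HT29. Their summed signal was 458 to 1121 in SW480. In HT29 it was 22300.1 to 32498, nearly all of it LYZ, at 22198 to 32382. Their part in the members' values was not tested.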

How the data were processed

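RNA of 20 libraries of HT29 and SW480 cells was measured by exome-capture sequencing. The authors quantified reads with kallisto 0.44.0 on hg38 after FastQC 0.11.5 and deposited, for each library, signal values normalized with DESeq2 1.24.0 within each line; the transcript annotation and the strand used in counting are not given in the sources used here. The 40117 entries were summed by name to 36346 genes.

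Fits used limma 3.58.1 (trend) in R 4.3.3 on log2(signal + 1), for genes with a signal of at least 10 in at least 6 SW480 or 4 HT29 libraries, adjusting p by Benjamini-Hochberg across the whole table, with a threshold of 0.05. The members and lists were chosen with earlier results of these data known. Named genes are the members, POLR1D, up to 4 called genes a list with the largest change, and the 5 most like the members over SW480 residuals. Reads per library were estimated from the smallest step between low values; this number limits the precision of low signals.

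Alternatives were other pseudocounts (0.1, 5), a minimum of 30 or none, upper quartile and quantile scaling, robust or untrended variance, weights, a replicate block, both lines in 1 fit, unsummed entries, each siRNA alone, each side alone or as a covariate, and each library left out. Relative depth as a covariate, SW480 without SCR 2 and SCR 3, and the side in the siRNA and interaction fits were added after the data were seen. Whether replicate numbers pair libraries was checked from residuals: r was above 0.1 in 0 of 6 HT29 and 2 of 9 SW480 pairs. This cannot decide on pairing, because residuals cancel within small siRNA groups, and the main fits used no pairing. Promoters are from RefSeq GRCh38.p14 and gene positions from GENCODE 29 on GRCh38.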

Additional observations from a re-analysis of the deposited data

Results flagged for a closer look

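DUSP1 in the 4 silenced HT29 libraries had 1 library far from the others: siPOLR1D2 1, at 15.4, against 31.6 to 35.04 in the other 3. Its gap to the nearest library was 0.871 of the group's whole range. Groups of 4 or 6 libraries were examined this way for the 10 genes, 40 in all, and chance alone gives about 1 such group in 20.

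The log2 fold change of EGR1 had opposite signs in the lines, and limma did not call the difference. All 6 silenced SW480 libraries were below the mean log2 signal of SCR and all 4 silenced HT29 libraries above it, a log2 difference of -1.80 (SW480 minus HT29). Some SCR libraries lay on the same sides of that mean: SCR 1, SCR 4 and SCR 5 in SW480, and SCR 3 and SCR 4 in HT29. These silencing values are among those that chose the members, so the difference is a description.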

How the results depend on the processing

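For single genes in alternative fits, 1607 values were alike and 40 moved further than the spread between replicates. A further 8 newly passed the threshold, 98 no longer passed and 0 reversed while called. These counts pool called genes with genes that had not passed, so they do not show how steady the calls were. In SW480 ATF3 kept its call in 11 of 31 alternative fits, CDKN1B in 16, GADD45A in 17 and CDKN2B in 27. The cause of the shifts was not tested. Fits that leave libraries out also rest on fewer libraries.

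For silencing in SW480 (0 members, 1011 genes and 10 listed genes called), no filter on low values gave 666 genes and 6 listed. Array weights gave 2 members, 3057 genes and 38 listed. siPOLR1D2 alone gave 574 genes and 3 listed, and siPOLR1D3 alone 1 member, 917 genes and 11 listed. With the side as a covariate there were 1 member, 1993 genes and 23 listed. The first side alone gave 0 genes and 0 listed by limma (1520 genes at an unadjusted p under 0.05), and the second side alone 1 member, 1939 genes and 26 listed. Without SCR 2 and SCR 3 there were 495 genes and 3 listed. Leaving out 1 library gave 534 to 1283 genes and 4 to 16 listed.

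In HT29 (0 genes called by limma, 1422 at an unadjusted p under 0.05) both lines in 1 fit gave 11 genes, and leaving out 1 library gave 0 to 1.

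For the siRNA difference in SW480 (0 members, 498 genes), a pseudocount of 5, a minimum of 30 and quantile normalization each gave 1 member, beside 523 genes, 556 genes and more than either. The side as a covariate gave 213 genes. Leaving out 1 library gave 0 to 1 members and 39 to 777 genes. For the interaction (6 genes), quantile normalization gave 10, the side as a covariate 36, and leaving out 1 library 0 to 23.

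With the replicate block, which pairs libraries by their numbers, SW480 silencing gave 0 genes and 0 listed by limma. HT29 gave 2 members, 735 genes and 16 listed, the siRNA difference in SW480 39 genes, and the interaction 36. Residuals of same-numbered libraries had a mean r of -0.04 in HT29 and -0.02 in SW480, where r ran from -0.60 to 0.39. Residuals cancel within each small siRNA group, which holds the mean r near 0. This check therefore cannot decide whether the numbers pair libraries.

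Depth limits low signals most: in HT29, DUSP1 was at 15.4 to 62.7 and KLF4 at 15.0 to 119.8.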
